A study of Mus musculus with 4 samples.

Results

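The protocadherin genes were taken as every protein-coding row of the deposited table whose gene name begins with Pcdh, which gave 69 genes of 28193 in the table. Of these, 57 belonged to the clustered protocadherins, with 14 Pcdha, 22 Pcdhb and 21 Pcdhg genes, and 12 were non-clustered. RNA bound to tagged ribosomes was sequenced from the hippocampus of male C57BL/6J mice aged 3 to 5 months, with the genotype cFos-Cre:Ribotag in the labels. According to the study's methods, adeno-associated viruses were infused into area CA1, of which AAV8-Fos-ERT2-Cre-ERT2 puts a tamoxifen-dependent Cre under the c-Fos promoter and AAV9-EF1a-DIO-HA-mRpl22-IRES-eYFP supplies HA-tagged Rpl22 once Cre has acted, while the labels name the tissue dorsal hippocampus. All mice, controls included, received 4-OHT and were kept awake for 5 h on day 0, so that tagging followed c-Fos promoter activity during that episode. On day 7 the SD mice were kept awake again for 5 h from lights on by gentle handling and the NSD mice were left undisturbed. Each group held 2 libraries, each from the pooled CA1 of 5 mice, and 1 library of each group carried the label batch 1 and the other batch 2.

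Protocadherins are cadherin-like adhesion proteins of the neuronal surface. In the Pcdha and Pcdhg clusters each gene joins its own large variable exon, which encodes the extracellular, transmembrane and proximal cytoplasmic parts, to constant exons shared by the whole cluster, whereas each Pcdhb gene encodes its protein in a single exon without a constant part. Alternate promoters are chosen largely at random in single neurons with the help of CTCF and cohesin, the C-type genes at the ends of the Pcdha and Pcdhg clusters are chosen by other rules, and the proteins bind homophilically and give a neuron a surface identity used in dendrite self-avoidance. The non-clustered genes lie elsewhere, have promoters of their own and mainly encode the delta-protocadherins of neural circuits.

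Library totals ran from 153511673 to 195910205 estimated counts. All 69 genes had more than 5 counts in every library, so all were among the 22338 genes tested, with counts from 19 for Pcdhb1 to 109829 for Pcdh1. Marker genes of CA1 pyramidal neurons, such as Wfs1 at 279.2 to 440.6 CPM (counts per 1000000 counts of the scaled library), were abundant, and markers of interneurons (719.2 to 809.8 CPM summed over 6 genes) and oligodendrocytes (1066.1 to 1303.2 CPM over 4 genes) were present too. Arc, an activity-induced gene, rose from 198.8 and 232.9 CPM in NSD to 386.3 and 426.3 CPM in SD (adjusted p = 0.0328, edgeR quasi-likelihood test). Fos, whose promoter drove the tagging vector, was at 271.1 and 513.3 CPM in NSD and at 336.0 and 375.1 CPM in SD (adjusted p = 0.827 by edgeR). Rpl22, the tagged ribosomal gene, was at 628.5 and 1044.7 CPM in NSD and at 610.2 and 809.5 CPM in SD (adjusted p = 0.651 by edgeR).

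The 3 clusters lay next to each other on the plus strand of chromosome 18 (GRCm39), with the Pcdha genes between 37063237 and 37320714, the Pcdhb genes between 37397991 and 37657532, and the Pcdhg genes between 37794846 and 37974926. Exon bases shared between rows with a Pcdh symbol in the table were counted in a GENCODE annotation of that build. They made up 38.4% to 54.9% of the exon bases of each Pcdha gene and 28.4% to 67.4% of those of each Pcdhg gene. Among the Pcdhb genes only Pcdhb21 and Pcdhb22 shared bases, overlapping by 455, and the non-clustered genes shared none. Gm37013, which that annotation names Pcdha4b, was not counted, and it shares 2410 exon bases with Pcdha4. Reads in shared exons were split between genes by the authors' estimation model, and 87.5% of the Pcdha and 91.7% of the Pcdhg values lay more than 0.05 from a whole number, against 25.0% of the Pcdhb values, 58.3% of the non-clustered ones and 41.9% of those of all tested protein-coding genes. Values of Pcdha or of Pcdhg genes were therefore not independent of each other, and each such value was uncertain by how shared reads were divided.

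Scaled per kilobase of exon, the clustered genes were not read evenly, and the C-type genes at the cluster ends stood highest. Pcdhgc5 reached 21.9 ± 2.09 CPM per kb (SD, n = 4 libraries) and Pcdhac2 reached 19.4 ± 0.874, and their libraries overlapped. Pcdhgc3 followed at 11.1 ± 0.547, while Pcdhgc4 at 4.32 ± 0.319 and Pcdhac1 at 2.53 ± 0.321 lay within the range of the other clustered genes. The 12 alternate Pcdha genes had a median of 1.71 CPM per kb and ran from 0.641 ± 0.0502 for Pcdha8 to 3.83 ± 0.224 for Pcdha12. The 12 Pcdhga genes had a median of 4.21 and the 6 Pcdhgb genes a median of 2.53, and Pcdhgb5 had the lowest level of the Pcdhg genes at 1.22 ± 0.186. The Pcdhb genes had a median of 2.77, with Pcdhb16 highest at 5.19 ± 0.368 and Pcdhb1 lowest at 0.0624 ± 0.0244. Most neighbours in the order of levels overlapped between libraries.

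**Figure D1:**
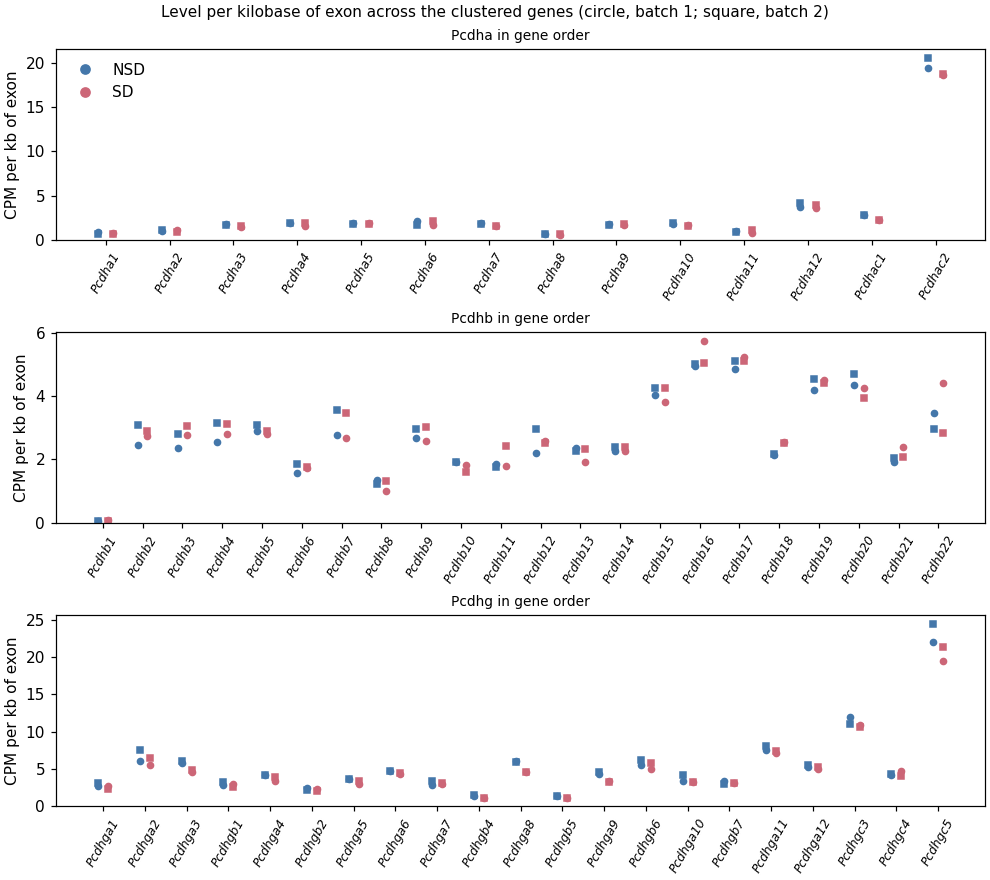
Level of each clustered protocadherin gene in CPM per kilobase of exon (y axis, linear) in gene order along each cluster (x axis); each point is 1 library, NSD in blue and SD in red, with batch 1 as circles and batch 2 as squares. Pcdhac2 and Pcdhgc5, the last genes of their clusters, stand above all other members of the same cluster in every library, and Pcdhb1 is near 0.

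As a share of the counts assigned to a cluster, which depends on gene length, the C-type genes took 54.1% and 56.1% of Pcdha in NSD and 55.4% and 54.0% in SD, with overlap. Of Pcdhg they took 41.0% and 40.8% in NSD and 41.7% and 41.8% in SD, without overlap. Within that sum Pcdhgc4 did not overlap either (3.81% and 3.76% against 4.86% and 4.0%). The shares of Pcdhgc3 overlapped (10.4% and 9.06% against 10.6% and 9.91%). Pcdhac2 alone took 47.9% and 49.9% of the Pcdha counts in NSD and 50.0% and 48.8% in SD. Pcdhgc5 alone took 26.8% and 28.0% of the Pcdhg counts in NSD and 26.2% and 27.9% in SD. For Pcdhac2 and Pcdhgc5 the shares of the groups overlapped. Pcdhac1, the other C-type gene of the Pcdha cluster, took 6.18% and 6.20% in NSD and 5.40% and 5.29% in SD, without overlap.

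The comparison of SD with NSD asked how the ribosome-bound RNA of neurons tagged in the day 0 episode differed after the day 7 episode. A gene was called when its adjusted p was below 0.05 and its fold change exceeded 1.2. By edgeR, 2 protocadherin genes were called lower in SD, Pcdhga9 and Pcdhga8, and none was called higher. In the background, 2.33% of all tested genes were called lower and 0.77% higher, and of the 15551 tested protein-coding genes 0.54% were called lower and 0.952% higher. The 2 called members made up 2.9% of the 69 genes. At an unadjusted p under 0.05 there were 8 lower and 2 higher members, which is 11.6% and 2.9%, near or under the 12.2% and 6.86% of all tested genes. Of protein-coding genes, 5.76% were lower and 8.86% higher at that level. The libraries were of pooled tissue, so fewer tagged cells of a type and less bound RNA per cell cannot be told apart.

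When batch was added to the edgeR model as a blocking term, 6 protocadherin genes were called lower, adding Pcdhga3, Pcdhgb5, Pcdhac1 and Pcdh15, and again none was called higher. The blocked test also called more genes of the whole table, with 8.47% lower and 2.99% higher, and 3.29% lower and 3.77% higher among protein-coding genes. DESeq2 called 4 members lower, Pcdhga9, Pcdhga8, Pcdhga3 and Pcdhgb5, and none higher, against 5.8% and 3.0% of all tested genes and 1.79% and 3.92% of protein-coding genes.

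The direction was uneven between the groups of the family. The log2 fold change was below 0 in 20 of 21 Pcdhg genes (median -0.17), in 11 of 14 Pcdha genes (median -0.13), in 10 of 22 Pcdhb genes (median 0.027) and in 8 of 12 non-clustered genes (median -0.048). All tested protein-coding genes had a median of 0.018, with 45.8% below 0, and all tested genes a median of -0.016. Clustered genes together had a median of -0.09. The SD pair lay wholly below the NSD pair in 14 Pcdhg, 6 Pcdha, 2 Pcdhb and 4 non-clustered genes, and above them in 0, 0, 5 and 2 genes. That is 37.7% of the 69 genes below and 10.1% above, where 20.0% of protein-coding genes lay below and 26.5% above, and 27.5% and 22.0% of all tested genes. The medians of the groups were not tested against each other, and because Pcdhg genes share exons, their count is not one of independent genes.

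**Figure D2:**
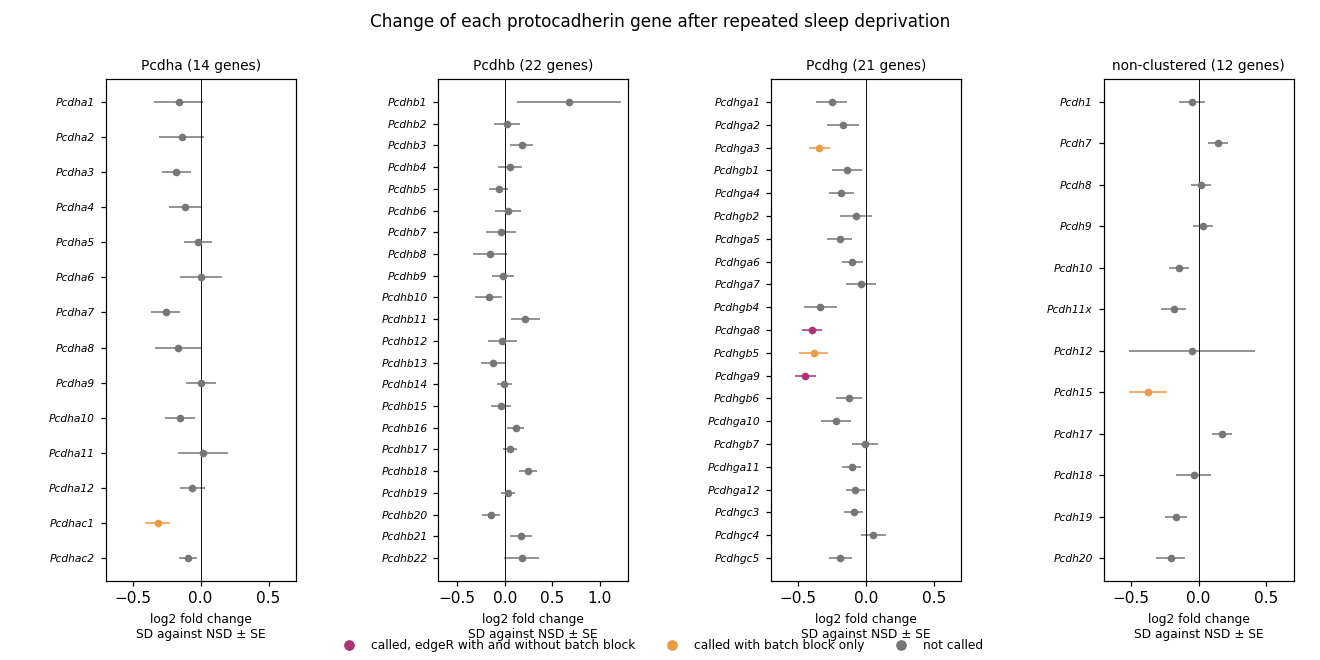
Log2 fold change of each of the 69 protocadherin genes, SD against NSD (x axis), with the standard error as bars, for genes listed in cluster order or by number (y axis); colors mark genes called by edgeR with and without the batch block, with the block only, or not called. In Pcdhg 20 of 21 points lie left of 0, whereas the Pcdhb points lie on both sides, and the wide bar of Pcdhb1 belongs to a gene with 19 to 46 counts per library.

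Pcdhga9 (18, 37869989 to 37974923), an A-type gene of the Pcdhg cluster, was at 24.8 and 25.8 CPM in the NSD libraries and at 18.8 and 18.3 CPM in the SD libraries. The groups were separated by more than the spread within either. Its level fell by 0.45 on the log2 scale (SE 0.078, adjusted p = 0.0374 by edgeR), or 0.733-fold. Leaving out each library in turn kept the call, with adjusted p from 0.0105 to 0.0480. The call was lost without a count filter (adjusted p = 0.0524) and with filterByExpr (0.0628).

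Pcdhga8 (18, 37858759 to 37974926), also of the A type, was at 29.4 and 28.9 CPM in NSD and at 21.9 and 22.4 CPM in SD. It fell by 0.395 on the log2 scale (SE 0.074, adjusted p = 0.0397 by edgeR), or 0.761-fold, with no overlap of the groups. Without NSD replicate 1 the change was -0.35 and the adjusted p 0.0852, in a fit that called 87 genes lower in the whole table against 520 with all libraries. The call was also lost without a count filter (adjusted p = 0.0587) and with filterByExpr (0.0628). Testing protein-coding genes alone gave an adjusted p of 0.0532 for Pcdhga8 and of 0.0448 for Pcdhga9.

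Pcdhgb5 lies between these genes, so that Pcdhga8, Pcdhgb5 and Pcdhga9 are the members 11, 12 and 13 of the cluster in gene order. Pcdhgb5 (18, 37864062 to 37974926), a B-type gene, was at 9.43 and 9.53 CPM in NSD and at 7.21 and 7.32 CPM in SD. Its log2 fold change was -0.38 (SE 0.11), with an adjusted p of 0.0945 by edgeR and of 0.0236 with the batch block. Its farther neighbours were looked at after these values were seen. Pcdhgb4, on the 5' side of Pcdhga8, was at 7.80 and 8.74 CPM against 6.59 and 6.52 CPM (log2 fold change -0.335). It was not called, with an adjusted p of 0.177 by edgeR and of 0.0657 with the block. Pcdhgb6, on the 3' side of Pcdhga9, was at 26.6 and 29.7 CPM against 23.8 and 27.7 CPM, and its groups overlapped.

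Pcdhga3 (18, 37807360 to 37974926), an A-type gene nearer the start of the cluster, was at 28.1 and 29.1 CPM in NSD and at 22.0 and 23.2 CPM in SD. Its log2 fold change was -0.34 (SE 0.076), with an adjusted p of 0.0532 by edgeR and of 0.00475 with the block. All 12 Pcdhga genes had a log2 fold change below 0, between -0.45 and -0.035. In 10 of them (83.3%) the SD pair lay wholly below the NSD pair, against 20.0% of protein-coding and 27.5% of all tested genes. The 6 Pcdhgb genes were also all below 0, with 2 such separations (33.3%).

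**Figure D3:**
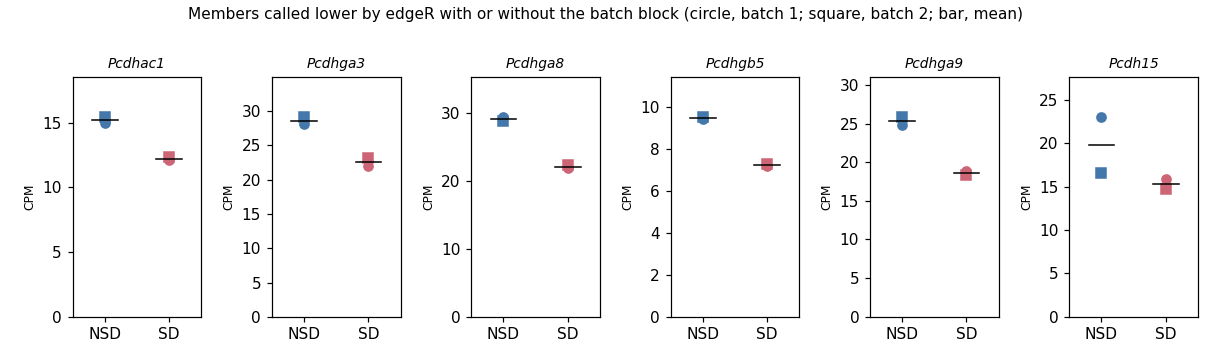
CPM of the 6 protocadherin genes called lower by edgeR with or without the batch block (y axes from 0), in the NSD and SD libraries (x axis); circles are batch 1, squares batch 2, and the bar is the group mean. The SD points lie below the NSD points in all 6 genes, closely grouped in the 5 clustered genes, whereas in Pcdh15 the NSD libraries lie apart at 23.0 and 16.6 CPM.

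The C-type Pcdhg genes did not pass the test. Pcdhgc5 was at 171.4 and 190.6 CPM in NSD and at 151.3 and 166.5 CPM in SD (log2 fold change -0.19, SE 0.085, adjusted p = 0.279 by edgeR). Pcdhgc3 was at 66.4 and 61.7 CPM against 61.1 and 59.1 CPM (log2 fold change -0.09). Pcdhgc4, known as the isoform needed for the survival of many neurons, was at 24.4 and 25.6 CPM against 28.1 and 23.8 CPM, the single Pcdhg gene above 0 (log2 fold change 0.055, SE 0.095). These values moved with single libraries, to -0.11 for Pcdhgc5 without NSD replicate 2, to -0.007 for Pcdhgc3 without NSD replicate 1 and to -0.066 for Pcdhgc4 without SD replicate 1.

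In the Pcdha cluster no gene was called without the block. Pcdhac1 (18, 37223066 to 37320710) was at 15.0 and 15.4 CPM in NSD and at 12.1 and 12.3 CPM in SD. Its log2 fold change was -0.32 (SE 0.089), with an adjusted p of 0.0944 by edgeR and of 0.0231 with the block. Pcdhac2, a C-type gene expressed strongly in serotonergic axons, was at 116.5 and 123.9 CPM against 112.5 and 113.1 CPM (log2 fold change -0.09, adjusted p = 0.54 by edgeR, and -0.047 without NSD replicate 2). Of the 12 alternate genes, 9 were below 0, where 45.8% of protein-coding and 52.8% of all tested genes were. In 4 of the 12 (33.3%) the SD pair lay wholly below the NSD pair, against 20.0% of protein-coding and 27.5% of all tested genes. The alternate genes share exons, so neither count is one of independent genes. Pcdha11, with the highest log2 fold change of the cluster at 0.015, was at 7.20 and 6.37 CPM in NSD and at 5.58 and 8.13 CPM in SD. Its SD libraries lay on either side of the NSD libraries, and its direction turned with the block (-0.007). Pcdha8, the least abundant per kilobase, was at 3.69 and 3.55 CPM against 3.07 and 3.39 CPM.

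The Pcdhb genes, which share no constant exons, had no call by edgeR with or without the block. Pcdhb1 had the highest log2 fold change at 0.67 (SE 0.54), on 19 and 21 counts in NSD against 46 and 27 in SD. At this depth no difference was detectable for it (adjusted p = 0.585 by edgeR). Pcdhb10 had the lowest, at 5.51 and 5.44 CPM in NSD against 5.17 and 4.56 CPM in SD (log2 fold change -0.17, SE 0.15). Pcdhb16, the most abundant per kilobase, was at 25.9 and 26.2 CPM against 30.0 and 26.4 CPM (log2 fold change 0.11, SE 0.085). Without SD replicate 1 the log2 fold change was 0.20 for Pcdhb1, -0.26 for Pcdhb10 and 0.02 for Pcdhb16, and without SD replicate 2 it was 1.05, -0.065 and 0.22. Pcdhb22, named after its values were seen, was at 22.9 and 19.5 CPM in NSD and at 29.2 and 18.8 CPM in SD. Its groups overlapped, and it was called higher when SD replicate 2 was left out (log2 fold change 0.48, adjusted p = 0.00728 by edgeR), which left the group with SD replicate 1 alone, whereas without SD replicate 1 its log2 fold change was -0.17.

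Summed over each cluster, Pcdhg was at 638.9 and 680.8 CPM in NSD and at 577.1 and 596.5 CPM in SD, 659.8 ± 29.6 against 586.8 ± 13.7 (SD, n = 2). The groups did not overlap, and the log2 ratio was -0.15 in batch 1 and -0.19 in batch 2. Pcdha was at 243.1 and 248.1 CPM against 224.9 and 231.9 CPM, with log2 ratios of -0.11 and -0.10 in the batches. Pcdhb was at 263.0 and 279.2 CPM against 281.2 and 277.4 CPM, where the groups overlapped and the ratio was 0.10 in batch 1 and -0.009 in batch 2. The 12 non-clustered genes summed to 1730.1 and 1811.8 CPM against 1717.5 and 1776.2 CPM and overlapped too. These sums were not tested.

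**Figure D4:**
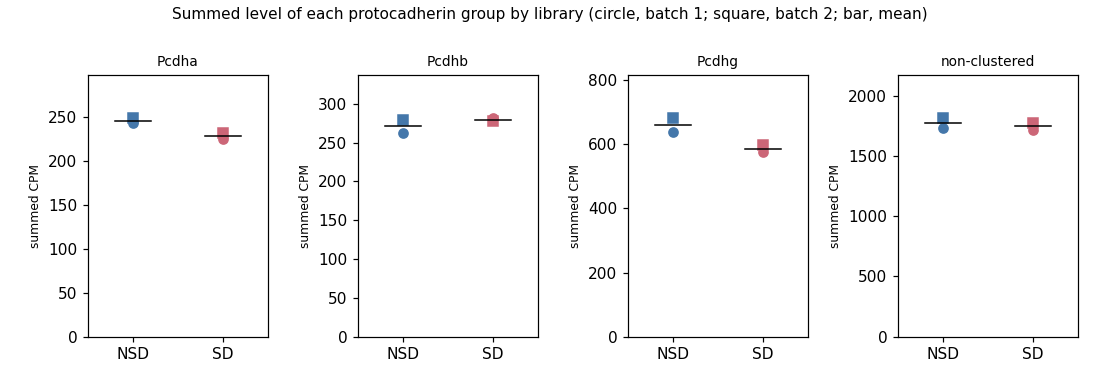
Summed CPM (y axes from 0) of the Pcdha, Pcdhb, Pcdhg and non-clustered protocadherin genes in the NSD and SD libraries (x axis); circles are batch 1, squares batch 2, and the bar is the group mean. The SD points lie below the NSD points for Pcdha and Pcdhg and overlap them for Pcdhb and the non-clustered genes.

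Markers of other cells moved between the same libraries. Of 4 CA1 pyramidal markers, 2 (Wfs1 and Fibcd1) lay below in both SD libraries and were called lower with the block, while Mpped1 lay above in both (437.3 and 454.3 CPM against 481.2 and 504.4 CPM) and Pou3f1 overlapped. The summed level of the 4 was 1157.8 and 1295.8 CPM in NSD and 1080.5 and 1204.1 CPM in SD. All 8 endothelial markers had a log2 fold change below 0, 7 of them without overlap and 5 called lower with the block, where 20.0% of protein-coding genes lay wholly below and 3.29% were called lower with the block. They summed to 40.5 and 56.9 CPM against 33.6 and 22.5 CPM. All 4 mural markers were below 0 too, 3 of them without overlap and 1 called with the block (median log2 fold change -0.315). The 3 choroid plexus markers summed to 59.5 and 127.9 CPM against 61.3 and 39.2 CPM, and 1 of them, Kl, was called lower by edgeR without the block (45.2 and 57.4 CPM against 35.4 and 34.9 CPM, adjusted p = 0.0405). In the other marker lists, none was called without the block and the median log2 fold change lay between -0.13 (oligodendrocytes) and 0.053 (oligodendrocyte precursors). With the block Neurod6, of excitatory neurons, Rgs14, of CA2, and Sst, of interneurons, were called lower. The CA3 and CA2 markers summed to 63.5 and 66.4 CPM in NSD and to 55.5 and 57.9 CPM in SD. The sums of the excitatory neuron, dentate granule (31.8 to 40.8 CPM), interneuron, astrocyte (414.1 to 463.4 CPM), oligodendrocyte, oligodendrocyte precursor (42.0 to 49.1 CPM) and microglia markers (54.8 to 71.9 CPM) overlapped between the groups. No marker read here was at 0 in any library. The part of these differences in the protocadherin values was not tested.

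Among the non-clustered genes none was called without the block. Pcdh15 (10, 72935174 to 74485569), a component of the tip links of inner ear hair cells, was at 23.0 and 16.6 CPM in NSD and at 15.9 and 14.7 CPM in SD. The NSD libraries lay farther apart than NSD replicate 2 lay from either SD library. Its log2 fold change was -0.37 (SE 0.14), with an adjusted p of 0.199 by edgeR and of 0.0194 with the block, and it was -0.09 without NSD replicate 1. Without NSD replicate 2 it was -0.59 (adjusted p = 0.0252) and without SD replicate 1 it was -0.43 (adjusted p = 0.0364), both called lower by edgeR without the block.

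The delta-1 protocadherins, which carry a long extracellular part and a binding motif for protein phosphatase 1, are Pcdh1, Pcdh7, Pcdh9 and Pcdh11x. Pcdh1 (18, 38318967 to 38345106, minus strand) had the highest level of all members at 63.7 ± 3.63 CPM per kb (SD, n = 4), and Pcdh9 (14, 93250846 to 94128115) the next at 30.8 ± 0.732. Pcdh1 was at 546.9 and 606.5 CPM in NSD and at 535.5 and 580.8 CPM in SD (log2 fold change -0.047, SE 0.095). Pcdh9 was at 283.0 and 279.8 CPM against 280.8 and 294.5 CPM (log2 fold change 0.032, SE 0.076), and the groups overlapped for both genes. Pcdh7 (5, 57875309 to 58290572) was at 158.8 and 148.9 CPM against 167.5 and 171.8 CPM (log2 fold change 0.14, adjusted p = 0.343 by edgeR), with both SD libraries above. Without NSD replicate 1 the log2 fold change was 0.22 for Pcdh7 and 0.07 for Pcdh9. Pcdh11x (X, 119199956 to 119820316) was at 14.6 and 15.3 CPM against 13.4 and 13.0 CPM (log2 fold change -0.18, adjusted p = 0.325 by edgeR), with both SD libraries below.

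The delta-2 protocadherins have a shorter extracellular part, and several recruit the WAVE actin complex through their tails. Pcdh17 (14, 84681003 to 84776442), which gathers that complex at contacts between axons, was at 213.7 and 224.2 CPM in NSD and at 248.6 and 245.1 CPM in SD. Both SD libraries lay above, with a log2 fold change of 0.17 (SE 0.074, adjusted p = 0.252 by edgeR and 0.0999 with the block). DESeq2 gave it an adjusted p of 0.049 at a fold change of 1.15, under the fold threshold. Pcdh10 (3, 45332833 to 45390058), an adhesion protein linked to activity-dependent synapse elimination, was at 223.1 and 219.6 CPM against 203.4 and 196.5 CPM (log2 fold change -0.15, adjusted p = 0.325 by edgeR). Pcdh19 (X, 132483609 to 132589736), mutated in a female-limited epilepsy, was at 156.2 and 174.9 CPM against 150.2 and 145.0 CPM (log2 fold change -0.165, adjusted p = 0.313 by edgeR). Pcdh10 and Pcdh19 were lower in both SD libraries than in either NSD library, but neither difference passed the test. Without NSD replicate 2 the log2 fold change of Pcdh19 was -0.08.

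Pcdh8 (14, 80004215 to 80008752), also called arcadlin, is known as an activity-induced gene that promotes the removal of N-cadherin from the synapse. It was at 33.8 and 33.7 CPM in NSD and at 32.8 and 35.5 CPM in SD (log2 fold change 0.017, SE 0.073, adjusted p = 0.94 by edgeR). The SD libraries enclosed the NSD libraries, in the same libraries in which Arc rose. Pcdh18 (3, 49697745 to 49711774) was at 6.15 and 6.75 CPM against 6.32 and 6.28 CPM (log2 fold change -0.034, SE 0.13). Pcdh20 (14, 88702179 to 88708832) was at 70.5 and 85.4 CPM against 62.6 and 72.7 CPM, with overlap between the groups (log2 fold change -0.20, adjusted p = 0.352 by edgeR). Leaving out a library gave -0.059 (NSD replicate 2) to -0.31 (NSD replicate 1). With the block its adjusted p was 0.0269 at a fold of 0.869, short of the fold threshold. Pcdh12 (18, 38400142 to 38417455), an endothelial protocadherin, had 63 and 36 counts in NSD and 51 and 58 in SD, and no difference was detectable at this depth (log2 fold change -0.05, SE 0.47).

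**Figure D5:**
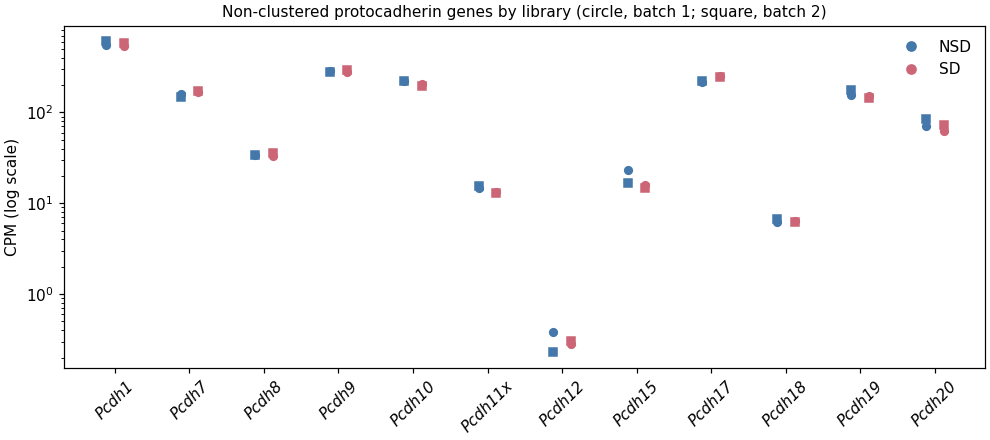
CPM of the 12 non-clustered protocadherin genes (y axis, log scale) in each library, NSD in blue and SD in red, with batch 1 as circles and batch 2 as squares. The levels run from Pcdh12, at 0.229 to 0.380 CPM, to Pcdh1, at 535.5 to 606.5 CPM, and the differences between the groups are small beside the differences between genes.

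A list of 82 genes that act with protocadherins or are related to them was read in the same test. None was called by edgeR without the block, where 11 had an unadjusted p under 0.05, 4 lower and 7 higher, and 3 were called higher both with the block and by DESeq2. These shares, 4.88%, 8.54% and 3.66%, were near those of the tested protein-coding genes given above. Dnmt3a, a DNA methyltransferase and 1 of 20 listed genes for promoter choice and methylation of the clusters, was at 164.1 and 136.3 CPM in NSD and at 204.5 and 174.7 CPM in SD (log2 fold change 0.34, adjusted p = 0.136 by edgeR and 0.00268 with the block). The cohesin genes and Ctcf, at 44.5 and 49.8 CPM against 47.8 and 48.3 CPM, were not called. Wasf3, 1 of 9 WAVE complex genes, was at 122.5 and 124.9 CPM against 146.9 and 152.7 CPM (log2 fold change 0.28, adjusted p = 0.0673 by edgeR and 0.00688 with the block). Cdh22, 1 of 32 other cadherin superfamily genes and catenins, was at 35.5 and 45.3 CPM against 52.1 and 59.1 CPM (log2 fold change 0.46, adjusted p = 0.072 by edgeR and 0.000377 with the block). None of the 13 partners of the cytoplasmic tails or the 8 genes of surface processing was called with or without the block. The median log2 fold change of the 82 genes was 0.032.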

How the data were processed

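After trimming, the authors used STAR 2.7.8a for alignment and quantified genes of mouse build mm39 (Ensembl release 110) with the E/M model of Partek Flow, as the study's methods and the submitters' processing notes state. For each of 4 libraries the deposited table gives estimated counts, not normalized. Whether counting used strand was not given in the sources used here. Rounded counts of the 22338 genes that exceeded 5 in each library entered edgeR 4.0.16 (R 4.3.3; TMM factors, quasi-likelihood test, condition as the only term, Benjamini-Hochberg adjustment over all genes tested). A call needed an adjusted p below 0.05 and a fold change over 1.2. CPM used TMM library sizes. Levels per kilobase used the union of exons in a GENCODE annotation for GRCm39, with all 69 genes matched by gene ID. Some gene bounds there differ from those of the deposited table. For Pcdh20 the lower bound is 88694835 there and 88702179 in the table, so its level per kilobase is uncertain. The deposited end positions lie 1 base past the last base and were printed less 1.

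Alternatives were the batch number as a block, DESeq2 1.42.0, other scalings, count filters, fold thresholds, and leaving out each library, where a lone library was assumed to vary like the other group. The labels give NSD and SD libraries of the same number the same batch, and the pairing used here rests on these labels. With group means removed, libraries of the same number correlated at 0.178 across genes. That is a single value without a reference and does not establish a pairing. Each library was 1 pool of mice, so p-values rest on the spread between 2 pools per group. That spread was not taken from each gene alone, since edgeR draws a gene's variance toward the trend over all tested genes (prior degrees of freedom 6.38). The scripts were tested on simulated data. The members and lists were chosen with earlier results of these data known. Text names every non-clustered gene, the C-type genes, each member called with or without the block, the members with the highest and lowest change and level per kilobase of each cluster, and related genes called by either fit. Marker lists of 12 cell types were read by their counts and sums, and 2 genes were left out of them and are not reported here.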

Additional observations from a re-analysis of the deposited data

How the results depend on the processing

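Of the counts of called protocadherin genes, the 2 lower genes became 6 with the replicate block, 4 with DESeq2, 1 with protein-coding genes alone, and 0 without a count filter, with filterByExpr or at a fold change over 1.5, where the loosened filters tested 28193 and 24323 genes and called 80 and 0 genes lower in the whole table. Leaving out a library gave 1 to 3 lower genes and 0 to 1 higher, and without NSD replicate 1 the number was 1. The related genes called higher were 0, and 3 with the replicate block and with DESeq2, and leaving out a library gave 1 to 2 higher (Dnmt3a or Cdh22) and 0 to 1 lower (Fat4, without NSD replicate 2 or SD replicate 1). The block changed no other call among the protocadherin or related genes. The median log2 fold changes of the clustered (-0.11 to -0.06) and non-clustered genes (-0.09 to -0.01) moved by less than the spread between libraries. Scaled to library totals alone, the log2 ratio of the sums was -0.16 for Pcdha, -0.23 for Pcdhg and -0.016 for Pcdhb, the last against 0.043.

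Of 270 repeats over the named genes, 242 kept direction and call, and 13 turned direction, all in genes that were not called. Leaving out a library gave -0.09 to 0.03 for Pcdh1, -0.37 to 0.39 for Pcdh12, -0.07 to 0.034 for Pcdh18, -0.022 to 0.074 for Pcdh8, -0.26 to 0.26 for Pcdha11, -0.17 to 0.48 for Pcdhb22 and -0.066 to 0.19 for Pcdhgc4. With protein-coding genes only Pcdh8 was at -0.004 and Pcdha11 at -0.007, and with the replicate block Pcdha11 was at -0.007. Where no cause is given it was not tested. With 2 libraries per group no permutation test of a sum could pass a threshold of 0.05, and the precision of the rarest members, Pcdh12 and Pcdhb1, was limited by counts of 19 to 63.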

Other observations

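The table holds 1 further row with a protocadherin symbol, Pcdhgb8, which is annotated as a polymorphic pseudogene on chromosome 18 from 37894854 to 37974923. It was at 10.2 and 8.95 CPM in NSD and at 7.71 and 7.10 CPM in SD (log2 fold change -0.37, SE 0.12), with an adjusted p of 0.131 by edgeR and of 0.0275 with the batch block. Gm26672, a long noncoding RNA on the opposite strand from 37879612 to 37901295, was at 7.36 and 5.62 CPM against 4.18 and 4.64 CPM (log2 fold change -0.56, adjusted p = 0.114 by edgeR and 0.0243 with the block). Its exons overlap those of Pcdhga10 by 2634 bases, Pcdhga11 by 1393, Pcdhga12 by 824, Pcdhgb7 by 771, Pcdhgb6 by 196 and Pcdhga9 by 7. Gm37013, a protein-coding row without a Pcdh symbol in the table, spans the clusters from 37085794 to 37973253. The GENCODE annotation names it Pcdha4b, and it shares 2410 exon bases with Pcdha4 and 446 with each Pcdhg gene. It was at 1.26 and 1.65 CPM against 2.71 and 1.22 CPM, with overlap between the groups.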
